A study of Mus musculus with 4 samples.

Results

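The cells described here are *Ly6c2* monocytes of the mouse fracture callus, the tissue that forms around a healing bone. They were chosen by their own mRNA counts: among cells with 1000 to 50000 unique molecular identifiers (UMIs, each standing for 1 captured mRNA molecule), at least 500 genes and at most 15% mitochondrial UMIs, a monocyte had at least 3 UMIs of *Ly6c2*, at least 2 of *Plac8* and at least 1 of *Ccr2*, and none of *C1qa*, *Elane*, *Mpo* or *Cd3e*. This rule found 433 cells among 29803 kept cells (1.45%), and 34038 barcodes had been deposited in all. The cells used for comparison were 7441 macrophages of the same libraries, with at least 1 UMI of *Csf1r* and at least 2 of *C1qa*. Because the values of these very cells chose them, every difference between monocytes and macrophages is given as a description.

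Callus was taken from the tibia at 4 and 7 days post fracture (dpf) for single-cell RNA sequencing (scRNA-seq), in male wild-type C57BL/6J mice aged 3 months. RA mice had arthritis brought on by repeated injection of K/BxN serum, which carries antibodies from arthritic mice, and control mice received vehicle. There were 4 libraries, control_4d and RA_4d at 4 dpf and control_7d and RA_7d at 7 dpf, each made from 1 pool of calluses (n = 4 by the labels, n = 3 by the methods of the paper) with 10x Genomics 3′ chemistry. The tissue was scraped from the bone surface and digested with collagenase.

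The libraries held 168210361 UMIs in 7630 barcodes for control_4d, 177131833 in 10206 for control_7d, 130168130 in 5896 for RA_4d and 182259646 in 10306 for RA_7d. Pairs of libraries shared 10 to 31 barcode sequences. With 1 library for each condition at each time, condition and library preparation cannot be told apart, no difference between conditions was tested, and cells of 1 library are not replicates. Intervals are exact 95% intervals and cover counting error only. A gene was called higher or lower when its log2 ratio was 1 or more in size, a 2-fold difference, with 10 CPM (counts scaled to a total of 1000000) added to both levels and at least 50 UMIs over both sums. A level in CPM is the number of UMIs of a gene over the UMIs of all genes, both summed over the cells of a group. Where 4 values stand in a row without names, both control libraries come first, each pair at 4 and then 7 dpf.

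Monocytes leave the bone marrow through the chemokine receptor CCR2, travel in blood and enter injured tissue, where they can become macrophages or dendritic cells. In mice the classical monocytes that do so carry much Ly6C, of which *Ly6c2* encodes 1 form. Monocytes also respond to interferons by switching on a shared set of antiviral genes, and to interferon-γ by raising MHC class II, the molecules that show peptides to T cells.

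The label was checked against monocyte markers that the rule did not use. *Lyz2*, which encodes lysozyme, was at 12907 CPM in control_4d and 10461 in control_7d, against 14077 in RA_4d and 12047 in RA_7d. *Chil3*, a chitinase-like protein of classical monocytes, was at 487, 598, 2218 and 1031 CPM, against 23.9, 8.73, 108 and 7.85 CPM in macrophages. Both genes were thus present in every library, and *Chil3* was far above the macrophages. *Fn1* and *F13a1*, which are also counted as monocyte markers, did not set the cells apart, since their median log2 ratio to macrophages over the 4 libraries was 0.17 and 0.11. Among markers of other types, *Cd79a* of B cells was at most 3.81 CPM and *Cpa3* of mast cells at 0 in every library, while granule and mesenchymal genes were high in some libraries and are given next.

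Some cells in the gate were not like the rest. A total of 44 cells had at least 3 UMIs of the granule genes *Camp*, *Ngp* and *Ltf*, and these were 1 cell in control_4d and 10 in control_7d, against 27 in RA_4d and 6 in RA_7d. Their median count of *S100a8*, a calcium-binding protein of neutrophils and monocytes, was 1260, 1525, 2186 and 1854.5 UMIs, whereas the median in the *Lyz2*-positive monocytes defined next was 0, 0, 1 and 0. In all 33 cells (12, 12, 5 and 4) had fewer than 5 UMIs of *Lyz2*, and 16 cells (8, 4, 3 and 1) had a UMI of *Siglech*, a marker of plasmacytoid dendritic cells. These groups overlapped, and leaving them out gave 352 *Lyz2*-positive monocytes, of which 72 were in control_4d and 119 in control_7d, against 99 in RA_4d and 62 in RA_7d. This subset was set after the cells had been seen, and the main results are given in it too. Of all gated cells, 151, 15, 73, 25 and 38, carried UMIs of a second lineage (for example at least 5 of *Col1a1* and *Col1a2* together), and whether they were doublets or cells with free RNA was not tested.

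Values just inside and just outside the limits of the rule were as follows, with no test. The 84 cells with 3 or 4 UMIs of *Ly6c2* had *Lyz2* between 11729 and 16310 CPM over the libraries, and the 141 cells with 1 or 2 UMIs that met every other limit had 5723 to 10049 CPM. Their *H2-Ab1*, an MHC class II gene, was 108 to 1277 CPM inside and 609 to 2762 CPM outside, but in control_7d it was higher inside, at 1105 against 609 CPM. The 33 cells with 1 UMI of *Ccr2* were at 608 to 3815 CPM of *Chil3*, and the 195 cells with none at 1884 to 4207 CPM. In RA_4d these were close, at 3815 and 3863 CPM. The 36 cells left out for a single UMI of *C1qa* had *Apoe*, a lipoprotein of macrophages, at 1139 to 3865 CPM.

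Genes of other cell types are shown here because they move with several results below. The neutrophil and granulocyte precursor genes summed to 4582 CPM in control_4d and 28067 in control_7d, against 67846 in RA_4d and 31940 in RA_7d, and to 1890, 7095, 5651 and 3333 CPM in *Lyz2*-positive monocytes. Their most abundant gene was *S100a8*, and in control_4d 1 cell held 66.1% of the sum. The granule genes *Camp* and *Ngp* were lowest in control_4d and highest in RA_4d, *Camp* at 205, 822, 6196 and 3218 CPM and *Ngp* at 203, 999, 5167 and 2480 CPM. In *Lyz2*-positive monocytes *Camp* was at 0, 0.719, 13.1 and 0 CPM, as the limit on granule genes in that subset fixes.

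Mesenchymal genes, whose most abundant member was the collagen gene *Col1a2*, summed to 3249, 7278, 179 and 11382 CPM in the monocytes and to 1544, 8251, 1768 and 15660 CPM in macrophages. In control_4d 1 cell held 83.2% of the sum, which was 568 CPM without it. Erythroid genes, led by the haemoglobin gene *Hbb-bs*, summed to 238, 1971, 12.7 and 1613 CPM, and 1 cell held 78.4% of the sum in control_7d. Endothelial genes summed to 188, 222, 81.1 and 324 CPM and natural killer cell genes to 30.5, 52.6, 4.08 and 48.1 CPM. B cell genes, led by *Ebf1*, which mesenchymal cells also express, summed to 122, 223, 88.3 and 424 CPM. The T cell genes summed to 5.71, 32.1, 2.27 and 25.4 CPM and mast cell and basophil genes to 6.67, 8.18, 1.81 and 9.98 CPM. RA_4d thus had the lowest sum of each of these lists. Without the 1 cell with the most UMIs of a list, its endothelial sum was 53.3 CPM against 58.8 in control_4d, and its natural killer sum, 3.22 CPM, was above the 1.93 CPM of control_4d.

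**Figure D1:**
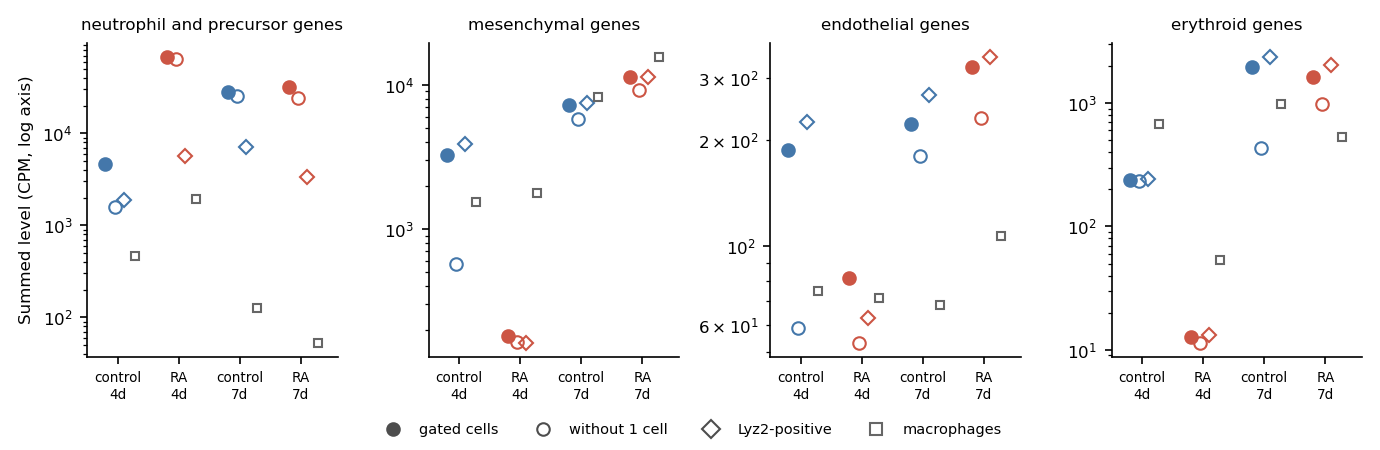
Summed level (CPM, log axis) of 4 gene lists of other cell types by library. Filled circles are all gated cells, open circles leave out the 1 cell with the most UMIs of the list, diamonds are *Lyz2*-positive monocytes and grey squares macrophages. Control libraries are blue and RA libraries red. Mesenchymal genes were at 179 CPM in RA_4d and at 11382 CPM in RA_7d.

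Monocytes were more frequent in RA callus than in control callus at 4 dpf and less frequent at 7 dpf. They made up 1.38% (1.10% to 1.69%) of kept cells in control_4d and 1.56% (1.31% to 1.84%) in control_7d, against 2.62% (2.19% to 3.1%) in RA_4d and 0.780% (0.612% to 0.980%) in RA_7d. RA_4d was the highest library and RA_7d the lowest, and neither interval overlapped those of the control libraries. The share in RA was 1.90 times that in control (1.44 to 2.52) at 4 dpf and 0.5 times (0.372 to 0.668) at 7 dpf. From 4 to 7 dpf the ratio was 1.13 (0.863 to 1.5) in control and 0.298 (0.221 to 0.4) in RA. *Lyz2*-positive monocytes gave ratios of 1.76 (1.29 to 2.42) at 4 dpf and 0.503 (0.364 to 0.690) at 7 dpf.

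These shares depend on what else was in the callus and on depth. Counted against macrophages, there were 3.76 monocytes per 100 macrophages in control_4d and 6.27 in control_7d, against 9.28 in RA_4d and 5.08 in RA_7d. Relative to control, the value in RA was 2.47 times as high (1.87 to 3.28) at 4 dpf and 0.810 times (0.602 to 1.08) at 7 dpf. At 7 dpf its interval included 1, and macrophages were themselves a smaller share of the cells in RA_7d, 15.4% against 24.9% in control_7d. Monocytes of RA_4d had the most UMIs, with a median of 14092 against 10340.5 in control_4d, 9557 in control_7d and 11966 in RA_7d. With each cell thinned to 4000 UMIs before the rule was applied, the ratio of shares at 4 dpf was 1.40 (0.957 to 2.06), and at 7 dpf it was 0.540.

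**Figure D2:**
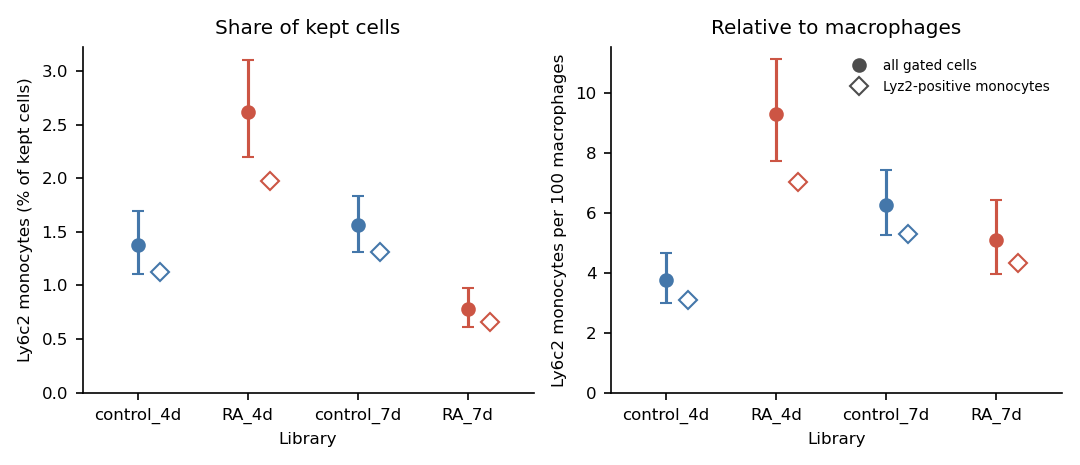
*Ly6c2* monocytes as a percentage of kept cells (left) and per 100 macrophages (right) by library. Circles are all gated cells with exact 95% intervals for counting error, and diamonds are *Lyz2*-positive monocytes. RA_4d was highest on both axes, at 2.62% and at 9.28 per 100 macrophages.

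Against macrophages, monocytes had more mRNA of classical monocyte genes and less of the genes of resident tissue macrophages. Of 11288 genes compared, 116 were higher (1.03%) and 229 lower (2.03%) in monocytes by 2-fold or more in each of the 4 libraries, and the median log2 ratio of all genes was -0.11. Of 22 classical monocyte genes, 12 were higher and none lower, with a median of 1.41. Leading genes outside the rule were *Chil3*, *Ifitm6* and *Hp* (haptoglobin). *Hp* was at 305, 516, 755 and 509 CPM in monocytes and at 12.6, 21.5, 19.4 and 30.7 CPM in macrophages. *Napsa*, an aspartic protease, was at 304, 283, 335 and 272 CPM against 32.4, 40.4, 40.6 and 29.5 CPM. *Itgb7*, a homing integrin subunit, was at 128, 130, 140 and 165 CPM against 14.99, 12.9, 14.9 and 12.01 CPM. *Gpr141*, an orphan receptor, was at 126, 139, 246 and 216 CPM against 7.97, 9.23, 12.7 and 4.46 CPM. *Napsa* and *Itgb7* thus varied little between libraries, whereas *Gpr141* was higher in both RA libraries. *S100a8*, *S100a9* and *Lcn2* also led this list, and *S100a8* was at 1838, 12716, 27553 and 12528 CPM in the gate but at 779, 4244, 3459 and 1844 CPM in *Lyz2*-positive monocytes.

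Outside the rule, which set *C1qa*, the genes lowest in monocytes were those of the other C1q chains, *C1qc* and *C1qb*, and *Ccl8*, *Pf4*, *Mrc1*, *Folr2*, *Selenop*, *Fcrls*, *Fabp5*, *Cd36* and *Gdf15*. Of 18 macrophage genes compared, 15 were lower and none higher, with a median log2 ratio of -2.68. *Mrc1*, the mannose receptor, was at 64.8, 52.6, 34.0 and 78.9 CPM in monocytes and at 1063, 720, 939 and 1001 CPM in macrophages. *Selenop*, a selenium carrier, was at 207, 153, 152 and 172 CPM against 1961, 1801, 2053 and 2997 CPM. Neither gene overlapped between the cell types. *Apoe* was at 2591, 1736, 1564 and 1413 CPM in monocytes and 13418, 18195, 10634 and 18675 CPM in macrophages. Among genes for handling iron and haem, 5 of 9 were lower, and among those of lysosomes and lipids 7 of 15 were lower, with none higher in either list. The ferritin gene *Fth1* was at 8371, 9831, 7277 and 6617 CPM against 15494, 18971, 13193 and 12500 CPM. Osteoclast lineage genes were lower for 4 of 8 and CC chemokines for 4 of 7.

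Between RA and control, 174 of 6454 genes were higher (2.7%) and 205 lower (3.18%) in RA monocytes at 4 dpf. At 7 dpf, 119 of 6548 were higher (1.82%) and 37 lower (0.565%). Among the genes called in either direction, those higher in RA were 45.9% at 4 dpf and 76.3% at 7 dpf. Those splits moved with the cells taken. In *Lyz2*-positive monocytes 44 of 5424 genes were higher (0.811%) and 156 lower (2.88%) at 4 dpf, so that 22% of the calls were higher, and 89 of 5757 were higher (1.55%) and 51 lower (0.886%) at 7 dpf, which is 63.6%. Without cells of a second lineage, 51.5% of calls were higher at 4 dpf and 24.2% at 7 dpf, and with the rule on thinned cells 14.9% at 7 dpf. TMM scaling, which sets the bulk of genes to a ratio near 1, would raise every log2 ratio by 0.14 at 4 dpf, where its log2 factor was -0.14, and gave 56.9% higher calls. Of the 205 genes lower at 4 dpf, 72 (35.1%) were at least 4-fold higher in *Prrx1* mesenchymal cells than in macrophages, against 2.12% of the genes compared. All 6 mesenchymal genes compared were lower at 4 dpf and 4 of 9 were higher at 7 dpf. Of the neutrophil and precursor genes, 11 of 12 were higher at 4 dpf, and 2 of 11 were higher and 1 lower at 7 dpf.

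The comparisons at 4 and 7 dpf share no library, and genes that moved the same way in both were few. Of 6013 genes compared at both times, 6 were higher at both (0.0998%) and 8 lower at both (0.133%). The 6 were *F5*, *Fcnb*, *Camp*, *Ngp*, *Cebpe* and *Stfa1*, of which *Camp*, *Ngp*, *Fcnb* and *Cebpe* are genes of granule formation. The 8 were *Irf7*, *Ifi27l2a* and *Phf11b*, which respond to interferon, and *Fmod*, *Sdc4*, *Col11a1*, *Dmkn* and *Gpx3*. A further 21 genes were lower at 4 dpf and higher at 7 dpf, among them *Col3a1*, *Ccl2* and *Dcn*, and 4 were higher and then lower, *Mmp9*, *Saa3*, *Cstdc4* and *Retnlg*. In *Lyz2*-positive monocytes 2 genes were higher at both times, *F5* among them, and 7 lower, *Isg15*, *Ifi27l2a*, *Phf11b*, *Ccl5*, *Fmod*, *Gpx3* and *Ecrg4*. Genes named from these counts were picked after their values were seen.

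Interferon response genes were lower in RA monocytes than in control monocytes, while in macrophages the list moved little. At 4 dpf 11 of 26 genes were lower and none higher, with a median log2 ratio of -0.98 against -0.05 for all genes, and at 7 dpf 3 of 28 were lower and none higher, with a median of -0.59 against 0.02. The 3 were *Irf7*, *Oasl1* and *Cxcl10*. The macrophage medians of the same list were 0.19 and -0.21. In *Lyz2*-positive monocytes the medians were -0.84 and -0.58. Over all alternatives they ran from -1.81 to -0.72 at 4 dpf and from -1.19 to -0.55 at 7 dpf. The median monocyte carried 1569 CPM of the list in control_4d and 1457 in control_7d, against 608 in RA_4d and 911 in RA_7d, and the median macrophage 1110, 850, 1379 and 862 CPM. In monocytes both RA libraries were thus below both control libraries, and in macrophages RA_4d was the highest.

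*Irf7*, a transcription factor that amplifies the interferon response, was at 171 CPM in control_4d and 174 in control_7d, against 66.1 in RA_4d and 64.4 in RA_7d. Both control libraries were above both RA libraries, and the fold was 0.386 (0.308 to 0.483) at 4 dpf and 0.371 (0.282 to 0.482) at 7 dpf. *Lyz2*-positive monocytes had 166, 199, 88.3 and 76.9 CPM, with log2 ratios of -0.84 at 4 dpf, which is no longer a call, and -1.27 at 7 dpf. In macrophages it was at 115, 90.7, 154 and 63.4 CPM. *Ifi27l2a*, an interferon-induced gene outside the list, was at 1776, 1792, 658 and 769 CPM, which is a fold of 0.371 (0.346 to 0.397) and 0.429 (0.397 to 0.463). *Isg15*, a ubiquitin-like protein, was at 232, 266, 81.5 and 133 CPM, with folds of 0.351 (0.288 to 0.427) and 0.501 (0.413 to 0.605). Single cells weighed on it, since 1 cell held 41.1% of its UMIs in RA_4d and 36.7% in RA_7d. Without cells of a second lineage its log2 ratio was -0.58 at 4 dpf and -1.97 at 7 dpf. *Bst2*, which tethers budding virus to the membrane, was at 490, 348, 153 and 188 CPM, with folds of 0.312 (0.271 to 0.358) and 0.540 (0.459 to 0.634). In *Lyz2*-positive monocytes *Bst2* was at 301, 298, 142 and 188 CPM, so the control libraries were close there.

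Other abundant members of the list followed. *Ifi211*, a DNA sensor of the interferon-inducible p200 family, was at 204, 166, 79.7 and 106 CPM. *Slfn5*, a member of the schlafen family, was at 214, 189, 103 and 122 CPM, and *Ifi204* at 294, 275, 178 and 225 CPM. Both RA libraries were below both control libraries for all 3. *Fcgr1*, the high-affinity IgG receptor, which is also raised by interferon-γ, was at 210, 212, 101 and 104 CPM, with folds of 0.484 (0.4003 to 0.586) and 0.492 (0.395 to 0.608), just short of a call once 10 CPM was added to both levels. In macrophages *Fcgr1* was at 175, 144, 211 and 117 CPM. *Ifitm1*, an interferon-inducible membrane protein also outside the list, was at 845, 1012, 458 and 92.5 CPM and at most 24.5 CPM in macrophages. Its fold was 0.543 (0.495 to 0.595) at 4 dpf and 0.0915 (0.0742 to 0.112) at 7 dpf, and in *Lyz2*-positive monocytes its log2 ratio was -0.28 and -3.27. In RA_7d 1 cell held 45.1% of its UMIs. *Cxcl10*, a chemokine of the response that was picked after its values were seen, was at 37.2, 140, 68.3 and 7.10 CPM in *Lyz2*-positive monocytes. Its level was thus higher in RA at 4 dpf and lower at 7 dpf. The share of these cells with a UMI of *Cxcl10* was lower in RA at both times. It was 13.9%, 14.3%, 6.06% and 4.84%, and after thinning 8.70%, 11.2%, 3.03% and 3.23%, from 6, 13, 3 and 2 cells. The higher level in RA_4d thus came from few cells. Of the receptors that start the response, *Ifngr1* was at 293, 214, 316 and 280 CPM, higher in RA at both times. *Ifnar2* was at 283, 237, 272 and 202 CPM, lower in RA at both times.

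Interferon genes are switched on through a promoter element that repeats GAAA, and the promoters of members lowered in RA are shown to let this be read. The sequences are from RefSeq on GRCm38.p6 and run from 250 bases before to 50 bases after the gene start, and capitals mark the bases of every match to GAAANNGAAA, or to its reverse complement TTTCNNTTTC, with overlapping matches joined. *Isg15* had 3 overlapping matches at chr4:156200769-156201068 on the minus strand, from 78 to 57 bases before its start. *Bst2* had 2 at chr8:71537423-71537722 on the minus strand, from 130 to 115 bases before its start. In the window of *Irf7* these letters were not found.
Isg15: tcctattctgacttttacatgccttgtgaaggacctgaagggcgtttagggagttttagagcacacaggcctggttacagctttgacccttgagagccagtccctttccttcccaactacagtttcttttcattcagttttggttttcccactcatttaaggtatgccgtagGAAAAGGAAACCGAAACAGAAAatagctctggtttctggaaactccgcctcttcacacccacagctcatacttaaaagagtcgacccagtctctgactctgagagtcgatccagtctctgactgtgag
Bst2: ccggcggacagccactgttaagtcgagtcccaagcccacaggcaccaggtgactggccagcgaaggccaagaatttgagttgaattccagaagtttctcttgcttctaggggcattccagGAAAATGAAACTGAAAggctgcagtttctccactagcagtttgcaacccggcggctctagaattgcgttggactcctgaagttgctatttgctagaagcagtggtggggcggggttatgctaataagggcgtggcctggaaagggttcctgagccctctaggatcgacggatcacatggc
Of the 33 listed genes, 27 matched a promoter in the table, and 17 of these (63%) held the motif in at least 1 promoter. Counted by promoter it was 18 of 33 (54.5%), against 1131 of 32851 promoters of all genes (3.44%). It was found in 2 of 18 promoters of the classical monocyte genes, and in 0 of 7 of the MHC class II genes and 0 of 20 of the cell cycle genes. A match says that the letters are there and nothing about binding in these cells.

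**Figure D3:**
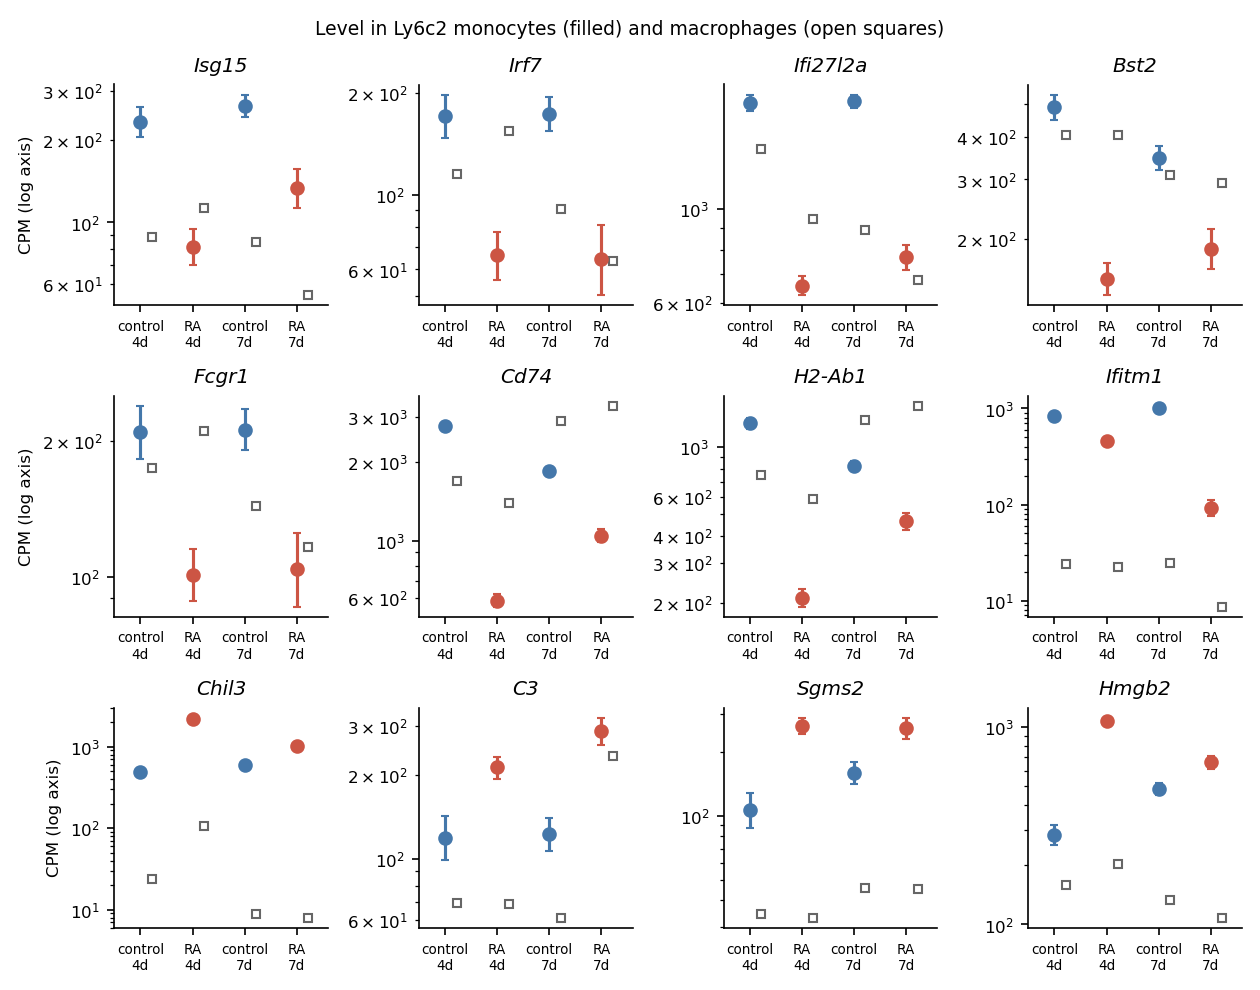
Level (CPM, log axis) of 12 genes by library. Filled circles are *Ly6c2* monocytes of control (blue) and RA (red) libraries with exact 95% Poisson intervals, and open squares are macrophages of the same library. *Irf7* was at 171 and 174 CPM in the control libraries and at 66.1 and 64.4 CPM in the RA libraries, while *C3* was at 119 and 122 CPM in the control libraries and at 212 and 288 CPM in the RA libraries.

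MHC class II genes were lower in RA monocytes at 4 dpf. All 6 genes compared were lower by 2-fold or more, with a median log2 ratio of -2.38, and 5 of 6 were lower in *Lyz2*-positive monocytes, with a median of -1.84. *Cd74*, the chain that escorts MHC class II through the cell, was at 2767 CPM in control_4d and 1848 in control_7d, against 588 in RA_4d and 1043 in RA_7d. *H2-Ab1*, which encodes a chain of the molecule itself, was at 1280, 822, 210 and 464 CPM. RA_4d was the lowest library for both and control_4d the highest, and the folds at 4 dpf were 0.212 (0.199 to 0.227) and 0.164 (0.147 to 0.183). At 7 dpf the folds were 0.564 (0.527 to 0.604) and 0.565 (0.510 to 0.626), and none of 6 genes was called. That median, -0.69, was -1.53 without cells of a second lineage and 0.04 with the rule on thinned cells.

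In macrophages the median log2 ratio of MHC class II genes was -0.32 at 4 dpf and 0.19 at 7 dpf. From 4 to 7 dpf macrophages had more of these genes, with medians of 0.55 in control and 1.15 in RA, and the monocytes had medians of -0.72 and 0.96. Without cells of a second lineage the log2 ratio of *H2-Ab1* in RA monocytes was -0.0282 over that time. *H2-Ab1* was present in a part of the cells. After thinning to 4000 UMIs, 33.3%, 35.3%, 17.2% and 24.2% of *Lyz2*-positive monocytes had a UMI of it, against 2.42%, 2.28%, 3.599% and 2.53% of mesenchymal cells, which should lack it. Before thinning the monocyte shares were 52.8%, 42.9%, 27.3% and 35.5%. The mesenchymal cells had median depths of 29230.5, 23505, 28719 and 23086 UMIs. *Cd209a*, a marker of monocyte-derived dendritic cells, moved in the same direction, at 92.4, 37.4, 8.15 and 14.5 CPM, and after thinning it was found in 11, 9, 4 and 3 gated cells, which is 12.9%, 6.57%, 3.05% and 4.11%. Among *Lyz2*-positive monocytes it was found in 2, 4, 0 and 2 cells. In the whole gate control_4d thus had both the highest MHC class II and the highest share of *Cd209a* cells. In *Lyz2*-positive monocytes it still had the highest MHC class II sum, at 5716, 4681, 1556 and 3401 CPM over the libraries. Its share of *Cd209a* cells was not the highest in that subset. The part of *Cd209a* cells in the result was not tested. The dendritic cell list summed to 327, 259, 190 and 220 CPM in the gate and to 216, 205, 191 and 239 CPM in *Lyz2*-positive monocytes.

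Classical monocyte genes were higher in RA monocytes at 4 dpf for 5 of 22 genes and lower for none, with a median log2 ratio of 0.20, and at 7 dpf none of 22 was called, with a median of 0.07. In *Lyz2*-positive monocytes 2 of 22 were higher at 4 dpf. *Chil3* had a fold of 4.56 (4.16 to 5.003) at 4 dpf and 1.72 (1.58 to 1.88) at 7 dpf. It was at 558, 514, 1484 and 554 CPM in *Lyz2*-positive monocytes, so RA_4d stood above the other 3 libraries, which were alike. Its log2 ratio at 7 dpf fell from 0.78 to 0.11 in that subset and was -0.20 with the rule on thinned cells, whereas at 4 dpf it was 1.40 and 1.82. The share of cells with a UMI of *Chil3* was also highest in RA_4d. After thinning it was 46.4% (34.3% to 58.8%), 47.4% (38.1% to 56.9%), 76.8% (67.2% to 84.7%) and 56.5% (43.3% to 69.0%) of *Lyz2*-positive monocytes, and at most 0.469% of mesenchymal cells. Unthinned shares were 61.1%, 49.6%, 82.8% and 66.1%.

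*Vcan*, a matrix proteoglycan, and *F13a1*, coagulation factor XIII, were also highest in RA_4d. *Vcan* was at 309, 496, 851 and 477 CPM in *Lyz2*-positive monocytes, with log2 ratios of 1.43 at 4 dpf and -0.06 at 7 dpf. *F13a1* was at 359, 373, 722 and 561 CPM, with log2 ratios of 0.99 and 0.57. *Gpr141* had folds of 1.96 (1.62 to 2.39) and 1.55 (1.29 to 1.87), each below a call. *C3*, the central complement component, was at 119, 122, 212 and 288 CPM and *Sgms2*, a sphingomyelin synthase, at 107, 160, 264 and 258 CPM. *Tspan5*, a tetraspanin, was at 55.2, 59.6, 125 and 117 CPM. Each of these 3 was higher in both RA libraries than in both control libraries. *Ly6c2* itself was at 1167, 1219, 818 and 944 CPM, *Plac8* at 2255, 1830, 1411 and 1425 CPM and *Ccr2* at 660, 495, 601 and 603 CPM. Counts of these genes chose the cells, so no direction is read from them. *Ly6c2* reads may be shared with the near-identical *Ly6c1*, and its level is uncertain to that extent.

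**Figure D4:**
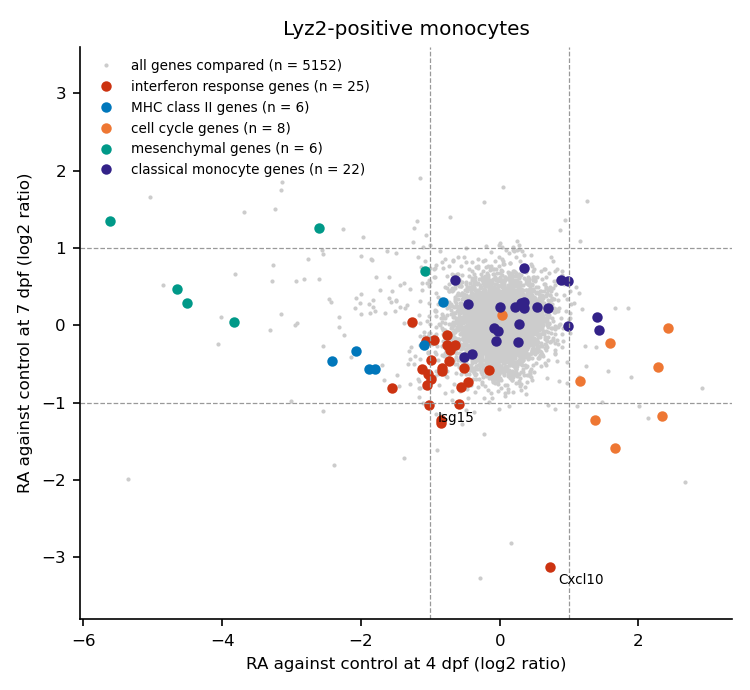
Log2 ratio of RA to control at 4 dpf (horizontal) and 7 dpf (vertical) in *Lyz2*-positive monocytes, with 1 point for each of 5152 genes compared at both times and dashed lines at a 2-fold difference. Interferon response genes (25, red) lie mostly below 0 on both axes, with *Cxcl10* at 0.73 and -3.13 as the farthest. MHC class II genes (6, blue) lie to the left and cell cycle genes (8, orange) to the right.

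Cell cycle genes were higher in RA monocytes at 4 dpf. In the gate 11 of 16 genes were higher and none lower, with a median log2 ratio of 1.47, and in *Lyz2*-positive monocytes 8 of 10 were higher, with a median of 1.48. In macrophages the median was 0.11. At 7 dpf none of 12 was called, with a median of 0.28, and in *Lyz2*-positive monocytes 3 of 8 were lower and none higher, with a median of -0.63. *Hmgb2*, a chromatin protein of dividing cells, was at 283 CPM in control_4d and 486 in control_7d, against 1070 in RA_4d and 661 in RA_7d. *Top2a*, the topoisomerase of chromosome separation, was at 9.52, 53.8, 116 and 70.7 CPM, and *Mki67* at 7.62, 31.6, 110 and 65.3 CPM. Control_4d was the lowest library and RA_4d the highest for all 3. After thinning, 1, 7, 16 and 8 gated cells had a UMI of *Mki67*, which is 1.18%, 5.11%, 12.2% and 11% (7.95%, 12.8%, 23.7% and 20.5% before thinning). Of *Lyz2*-positive monocytes it was 1, 7, 8 and 4 cells, or 1.45%, 6.03%, 8.08% and 6.45%. Mesenchymal cells, which also divide and so give no background value, had 8.42%, 5.95%, 8.92% and 2.65%. The median monocyte carried 513, 555, 735 and 669 CPM of the list.

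**Figure D5:**
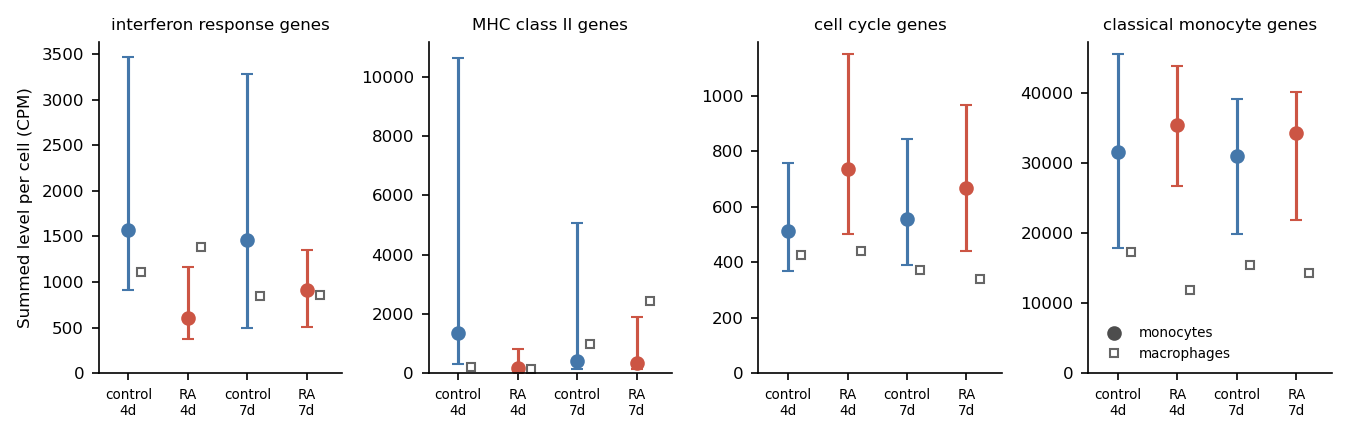
Summed level of 4 gene lists per cell (CPM) by library. Circles are the median monocyte with bars from the first to the third quartile, and open squares are the median macrophage. The median monocyte carried less of the interferon list in the RA libraries (608 and 911 CPM) than in the control libraries (1569 and 1457 CPM).

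Chemokines and cytokines moved less uniformly. Of 6 CC chemokines (with *Cxcl16*), 3 were lower at 4 dpf, and at 7 dpf 2 were higher and 1 lower. *Ccl2*, the ligand of CCR2, was at 231, 162, 102 and 363 CPM, with folds of 0.440 (0.366 to 0.530) at 4 dpf and 2.23 (1.91 to 2.61) at 7 dpf, and 1 cell held 25% of its UMIs in RA_7d. *Ccl7* was at 38.1, 24.5, 32.6 and 103 CPM, with 58.8% from 1 cell in RA_7d. *Ccl5* rested on single cells, 1 of which held 58.9% of its UMIs in control_4d and 93.5% in RA_4d. Of 14 inflammatory cytokines and NF-κB targets none was called at 4 dpf, and at 7 dpf 1 of 15 was higher. *Il1b*, which encodes interleukin-1β, was at 372, 268, 247 and 171 CPM in monocytes, above the 63.7, 90.3, 52.8 and 75.4 CPM of macrophages, and its folds of RA to control were 0.664 (0.582 to 0.758) and 0.639 (0.537 to 0.759). *Clec4e*, a receptor for mycobacterial glycolipid, was at 167, 270, 298 and 197.7 CPM, lowest in control_4d.

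For genes by which monocytes sense and enter tissue, the lists are too short to set their counts of calls apart from the shares over all genes, 2.7% higher and 3.18% lower at 4 dpf and 1.82% and 0.565% at 7 dpf. Of chemokine receptors 1 of 6 was higher at 4 dpf and none of 5 called at 7 dpf. *Ccr1* was at 129, 138, 235 and 166 CPM, with a fold of 1.82 (1.51 to 2.22) at 4 dpf. None of 10 adhesion and migration genes was called at either time, and *Cd44*, the hyaluronan receptor, was at 835, 847, 1179 and 1011 CPM. None of 5 Fc gamma receptor genes was called, with medians of -0.64 and -0.46. Among complement receptors and C3, 1 of 7 was lower at 4 dpf and 1 of 6 higher at 7 dpf. None of 14 innate sensors was called at 4 dpf and none of 10 at 7 dpf, with medians of 0.06 and -0.03. Growth factor receptors gave 0 calls among 18 and 1 higher among 19, and monocyte transcription factors 1 lower among 14 and none among 13.

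Lists of cell metabolism and stress are given by the same counts. None of 38 oxidative phosphorylation genes was called at either time, with medians of -0.06 and -0.13. Glycolysis and hypoxia genes had none of 19 and none of 17 called, with medians of 0.03 and -0.22. Immediate early and heat shock genes had 2 of 16 lower at 4 dpf, with a median of -0.36 and 2 of 16 above 0, and none called at 7 dpf, with a median of 0.19. None of 7 Notch pathway and DNA methyltransferase genes was called, and *Rbpj*, the transcription factor of Notch signalling, was at 199, 167, 159 and 153 CPM. Lysosome and lipid genes had 1 of 15 lower at 4 dpf, iron and haem genes 1 of 8 higher at 4 dpf, and neither list had a call at 7 dpf. The 7 iron and haem genes compared at 7 dpf were nonetheless all below 0, with a median of -0.57, against 0.03 at 4 dpf. Wound macrophage genes had 1 of 12 higher and 2 lower at 4 dpf and none of 10 called at 7 dpf. *Spp1*, osteopontin, was at 893, 583, 227 and 566 CPM, with 78.0% of its UMIs from 1 cell in RA_7d. Of patrolling monocyte genes 1 of 7 was lower at 4 dpf, namely *Nr4a1*, at 265, 126, 102 and 178 CPM, and 1 of 7 was higher at 7 dpf, with medians of -0.12 and 0.20. *Cx3cr1* was at 80.0, 45.6, 47.1 and 42.6 CPM. Macrophage genes had 1 of 13 lower at each time.

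From 4 to 7 dpf the largest shared differences were in genes of other lineages. In control 148 of 6288 genes were higher (2.35%) and 47 lower (0.747%) at 7 dpf, and in RA 373 of 6672 were higher (5.59%) and 50 lower (0.749%). The higher calls were 75.9% of all calls in control and 88.2% in RA. Without cells of a second lineage they were 41.7% and 33.7%, and with the rule on thinned cells 60% and 26.8%, so in RA they were the smaller part of the calls under both of these settings. The genes that led in both were *Postn*, *Itm2a*, *Hba-a1*, *Hbb-bs*, *Hba-a2*, *Col5a1*, *Col3a1*, *Meg3*, *Col5a2* and *Col6a2*, most of them matrix or haemoglobin genes, with the membrane protein gene *Itm2a* and the long non-coding RNA *Meg3*. *Postn*, a matrix protein of mesenchymal cells, was at 37.1, 507, 9.97 and 846 CPM in monocytes and at 81.8, 620, 131 and 859 CPM in macrophages. The 2 cell types thus had similar levels of it in each 7 dpf library. With the rule on thinned cells the haemoglobin genes turned round in control, to a log2 ratio of -0.91 for *Hba-a1*, -0.78 for *Hba-a2* and -0.84 for *Hbb-bs*. Without 1 cell the erythroid sum of control_7d was 429 CPM in place of 1971 CPM. *Hba-a1* and *Hba-a2* share most of their sequence, as do *Hbb-bs* and *Hbb-bt*, and counts between copies are uncertain.

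Only 3 genes were lower at 7 dpf in both conditions by the rule for naming genes, *Pf4*, *Gphn* and *Cmss1*. With the rule on thinned cells *Pf4* turned round in control, to a log2 ratio of 0.58. In *Lyz2*-positive monocytes 4 genes were lower, these and *Cdk8*. *Gphn*, which encodes gephyrin, was at 874 CPM in control_4d and 505 in control_7d, against 1183 in RA_4d and 632 in RA_7d, and at 1099, 683, 1225 and 686 CPM in macrophages. *Cmss1* was at 1828, 1017, 2064 and 1263 CPM, and at 1152, 866, 1222 and 869 CPM in macrophages. Both genes were thus higher at 4 dpf in each condition and in both cell types. Cell cycle genes had a median log2 ratio of 1.24 in control and -0.63 in RA. Interferon response genes had medians of -0.19 and 0.32, with 1 of 28 higher and 1 lower in control and none of 25 called in RA. In RA the TMM log2 factor was 0.14, which would lower each of these ratios by that size.

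The *Lyz2*-positive monocytes also differed among themselves within a library. With every cell thinned to 4000 UMIs they were divided into those with and those without a UMI of *Chil3*, which were 32 and 37 cells in control_4d, 55 and 61 in control_7d, 76 and 23 in RA_4d, and 35 and 27 in RA_7d. *Vcan* was found in more of the *Chil3* cells in every library, 62.5% against 35.1%, 72.7% against 55.7%, 82.9% against 65.2% and 77.1% against 37.0%. *H2-Ab1* was found in fewer of them in every library, 25% against 40.5%, 23.6% against 45.9%, 15.8% against 21.7% and 14.3% against 37.0%. The direction of both was thus the same in all 4 libraries. *Isg15* was also found in fewer *Chil3* cells in each library, by a small margin in the 4 dpf libraries, 25% against 27.0% in control_4d and 15.8% against 17.4% in RA_4d. *Cd209a* was in 0 *Chil3* cells of any library, but it was rare in the others too. It was in 5.41% and 6.56% of the cells without *Chil3* in control_4d and control_7d, and in 0% and 7.41% in RA_4d and RA_7d. *Il1b* showed no common direction, at 62.5% against 56.8% in control_4d and 31.4% against 40.7% in RA_7d. All cells were taken at the same depth, and no difference was tested.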

How the data were processed

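Single-cell libraries were made from pooled callus with the 10x Genomics 3′ v3.1 chemistry. The authors deposited filtered matrices of UMI counts per gene and cell, unnormalized, made with Cell Ranger 7.0.1 by the submitters' processing notes and aligned to mm10. The matrices list 32285 genes. No doublet caller was run here, and leaving out cells with UMIs of a second lineage served as an alternative.

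Counts were summed over the cells of each library and group and divided by their total. Ratios between sums used 10 CPM added to both levels and genes with at least 50 UMIs, and the fold changes printed are ratios of levels without that addition. With 1 library per condition and time no test was made. Shares have Clopper-Pearson intervals, levels Poisson intervals and ratios conditional binomial intervals, all exact at 95% and assuming independent molecules. The calculations used Python 3.11.15, numpy 2.4.6, scipy 1.17.1, pandas 2.3.3 and matplotlib 3.10.9, and were tested on simulated data.

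The members and gene lists were chosen with earlier results of these data known. Genes were named by rule: those with a log2 ratio of at least 0.58 in one direction in both comparisons that share no library and at least 100 CPM in the higher library, the 10 largest each way; the 12 largest each way against macrophages; and the 6 most abundant members of each list. Mitochondrial, ribosomal and unnamed gene models were left out of the ranked parts. Some genes that the rule takes are not reported here. Alternatives were the cell filter of the study, the rule on cells thinned to 4000 UMIs, other *Ly6c2* limits, the cells of a second lineage left out, another added level, other UMI minimums, TMM factors, the mean over cells and, added after seeing the data, *Lyz2*-positive monocytes.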

Additional observations from a re-analysis of the deposited data

Results flagged for a closer look

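The share of monocytes in RA relative to control moved in opposite directions at the 2 time points, with a ratio of 1.90 at 4 dpf and 0.50 at 7 dpf. Mesenchymal genes had a median log2 ratio of RA to control of -3.52 at 4 dpf and 0.73 at 7 dpf, and endothelial genes of -1.21 and 0.25. The endothelial median at 4 dpf came from 3 genes. Without the 1 cell with the most UMIs, the endothelial sum was 58.8 CPM in control_4d and 53.3 CPM in RA_4d. The mesenchymal sum without such a cell was 568 CPM in control_4d and 163 CPM in RA_4d. Between 7 and 4 dpf, CC chemokines had a median log2 ratio of -0.35 in control and 1.41 in RA. The value in RA came from 5 genes and was 0.61 in *Lyz2*-positive monocytes. Cell cycle genes had 1.24 in control and -0.63 in RA, and neutrophil and granulocyte precursor genes 2.10 and -1.06. In *Lyz2*-positive monocytes the neutrophil and precursor medians were 1.36 in control and -0.63 in RA. In each pair the sign differed between time points or between conditions. With 1 library per condition and time these differences were not tested.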

How the results depend on the processing

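No paired analysis was possible because each of the 4 groups had 1 library, so that groups share a single replicate number. A fit of treatment and day together over the 4 libraries, which assumes the same effect at both times, was not made. *Lyz2*-positive monocytes, with or without cells of a second lineage, were chosen after seeing the data.

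With the rule on cells thinned to 4000 UMIs the monocyte share was 0.946% in control_4d and 0.930% in control_7d, against 1.33% in RA_4d and 0.502% in RA_7d, the ratio of shares at 4 dpf 1.40, and monocytes per 100 macrophages 4.64 in control_7d, 6.19 in RA_4d and 3.91 in RA_7d. With at least 5 UMIs of *Ly6c2* the shares were 1.06% in control_4d, 1.28% in control_7d and 2.02% in RA_4d, and monocytes per 100 macrophages 2.9, 5.16 and 7.16. Without cells of a second lineage the shares were 0.752% in control_7d, 2.12% in RA_4d and 0.374% in RA_7d. In RA_4d the share was 3.16% with the cell filter of the study and 1.98% for *Lyz2*-positive monocytes, which were 7.02 per 100 macrophages.

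Genes past 2-fold between RA and control at 4 dpf numbered 379, and 171 without cells of a second lineage, 570 with 1 CPM added, 223 with at least 100 UMIs, 200 in *Lyz2*-positive monocytes and 118 in those without cells of a second lineage. At 7 dpf they were 156, and 101 with thinned cells, 62 without the second lineage, 277 with 1 CPM, 236 with at least 20 UMIs, 89 with at least 100 UMIs and 69 in *Lyz2*-positive monocytes without the second lineage. From 4 to 7 dpf in control they were 195, and under the same 6 settings 75, 72, 309, 298, 115 and 45. In RA they were 423, and 164 thinned, 95 without the second lineage, 687 and 217 with at least 20 and 100 UMIs, and 65 in *Lyz2*-positive monocytes without the second lineage. Against macrophages they were 345, and 646 with 1 CPM.

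The median log2 ratio of MHC class II genes at 7 dpf was 0.0369 with thinned cells, -1.53 without the second lineage and -1.53 in *Lyz2*-positive monocytes without it, against -0.40 in all *Lyz2*-positive monocytes. That of interferon genes was -1.81 at 4 dpf with thinned cells, and at 7 dpf -1.19 without the second lineage and -1.18 in *Lyz2*-positive monocytes without it. That of cell cycle genes at 7 dpf was -0.59 with thinned cells and -0.63 in *Lyz2*-positive monocytes. The cause of these shifts was not tested.

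Of 6020 other values over all alternatives, 4596 moved little, 1411 moved more, and 13 were log2 ratios of at least 1 in size that changed sign. Smaller ratios that changed sign are not among the 13. With thinned cells the 13 included, from 4 to 7 dpf in control, the erythroid list (-0.81), *Hba-a1* (-0.91), *Hba-a2* (-0.78), *Hbb-bs* (-0.84) and *Pf4* (0.58), then *Ngp* between RA and control at 7 dpf (-0.61) and *Spp1* from 4 to 7 dpf in RA (-1.14). *Dcn* was 2.81 in control with at least 5 UMIs of *Ly6c2*. From 4 to 7 dpf in RA, *Ecm1* (-0.20), *H2-Ab1* (-0.0282) and *Mmp14* (-0.0607) changed sign without the second lineage, and *Ecm1* (-0.27) and *Mmp14* (-0.11) in *Lyz2*-positive monocytes without it. RA_7d had the fewest monocytes, 73, and control_4d the fewest monocyte UMIs, 1049977, so genes at low levels rest on few molecules, often of 1 cell.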
